A study of Mus musculus with 10 samples.

Results

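The miRNAs described here are 6 listed guide arms (the arm of a hairpin that is usually kept) of epithelial miRNAs: mmu-miR-182-5p, mmu-miR-183-5p and mmu-miR-96-5p from one genomic cluster, mmu-miR-203-3p, mmu-miR-205-5p and mmu-miR-31-5p, written below without the species prefix. They were chosen by name, and all 6 were found among the 1892 miRNAs on the array. Mouse RNA from 10 samples, of which 5 bear the title T-C cell and 5 the title control cell, was put on 1 single-colour array each, with 2 spots per miRNA. T-C cell samples carry the source label Col-/- and control cell samples the source label Control Col, so a treatment and a difference in source cannot be told apart. The labels give all samples as male, describe them as sle liver and name a culture protocol for mouse liver cells. A dose of 0.5 mg TN-CF per 100000 T-C cells in a dish over 24 hours, with a control, is written in the labels of both groups, while the design text of the series writes TB-CF. What T-C, TN-CF, Col and sle stand for, the strain and the age are not stated in the labels. Whether samples within a group stem from different animals or dishes is not stated either, and the p-values cover only the spread among the samples measured, which could be technical.

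A miRNA guides the Argonaute complex to messenger RNAs that pair with its seed, bases 2 to 8, and lowers the output of those messages. The miR-182/183/96 cluster is transcribed as one primary RNA and is best known from sensory cells of the ear and eye and from several epithelia. miR-203 drives skin keratinocytes out of the proliferating state by repressing p63, miR-205 helps epithelial cells keep their character by repressing Zeb1 and Zeb2 together with the miR-200 family, and miR-31 is a miRNA of skin and gut epithelium that rises in wounds and inflamed skin.

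The mature sequences are shown because the seeds decide which members share possible targets and which array probes could share signal. They are RefSeq entries on GRCm38.p6, written 5′ to 3′ with the seed in capitals, and all 6 equal the target sequence that the array files give.
miR-182-5p: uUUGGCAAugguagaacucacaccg
miR-96-5p: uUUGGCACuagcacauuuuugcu
miR-183-5p: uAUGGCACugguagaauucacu
miR-203-3p: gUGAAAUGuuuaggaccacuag
miR-205-5p: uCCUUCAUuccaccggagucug
miR-31-5p: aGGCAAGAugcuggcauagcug
Within the cluster, miR-182-5p and miR-96-5p share 6 of 7 seed positions, as do miR-183-5p and miR-96-5p, while miR-182-5p and miR-183-5p share 5 of 7. Over their first 22 bases miR-182-5p and miR-183-5p are the same at 18 positions, so some sharing of signal between these probes cannot be told apart from RNA of each. No other miRNA on the array has the full seed of any of the 6, and the longest run of bases that a listed miRNA shares with any other array target was 10 (miR-183-5p with miR-470-5p). For miR-31-5p that longest run was 9 bases.

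The cluster lies on the minus strand of chromosome 6, with miR-183-5p at chr6:30169711-30169732, miR-96-5p at chr6:30169506-30169528 and miR-182-5p at chr6:30165962-30165986. The hairpins of miR-183 and miR-96 are 116 bases apart and those of miR-96 and miR-182 are 3453 bases apart. In the GENCODE M21 annotation these mature sequences lie in no gene other than their own hairpins. miR-203-3p, at chr12:112130927-112130948 on the plus strand, also lies in its own hairpin gene alone. miR-205-5p (chr1:193507503-193507524, minus strand) lies within an exonic part of 4631405K08Rik, and miR-31-5p (chr4:88910614-88910635, minus strand) within one of AL805899.1, both lincRNA genes on the same strand as the miRNA.

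The arrays differed in background, which bears on the dimmer members. A miRNA counted as detected on an array where its 2 spots averaged more than the 16 blank spots by over 3 SD of the blanks, a limit that ran from 133 to 474 on T-C cell arrays and from 64.0 to 319.5 on control cell arrays. T-C cell replicate 3 had the highest limit and the fewest detected miRNAs, 189, while control cell replicate 5 had the lowest limit and the most, 1314. T-C cell replicate 1 stood apart along principal component 1, which held 50.4% of the variance, with a score of −15.8, against −5.10 to −1.34 on the other T-C cell arrays and 1.63 to 8.05 on the control cell arrays. Its file is headed with a lower number than any other, and since what these numbers count is not stated, whether it came from another run or source cannot be told. Of the miRNAs listed as hepatocyte markers, miR-192-5p, miR-194-5p, miR-148a-3p and miR-101a-3p were detected on 10 of 10 arrays. But miR-122-5p, which dominates the miRNA of hepatocytes, and miR-802-5p were detected on T-C cell replicate 1 alone. Detection of the rest of the list is thus not read as a sign of hepatocytes. Mesenchymal markers were bright, miR-145a-5p averaging an intensity of 21311 on T-C cell arrays and 20312 on control cell arrays (n = 5 each).

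None of the listed miRNAs passed the test between the groups. Of the 6, the 4 that were detected on at least 5 of 10 arrays were tested: miR-182-5p, miR-183-5p, miR-203-3p and miR-205-5p. Normalized levels are log2(intensity + 50) after cyclic loess, compared with limma and Benjamini-Hochberg adjustment over all 476 tested miRNAs. At an adjusted p under 0.05, 0 of these 4 passed, against 37 of the 476, or 7.77%. In T-C cell samples 7 of the 476 (1.47%) were higher and 30 (6.30%) lower, which became 14 and 33 with quantile normalization and 1 and 13 with median centring. At an unadjusted p under 0.05, 1 of the 4 passed in this limma fit, against 18.3% of the 476. The groups overlapped for all 6 listed miRNAs, while 3.78% of the tested miRNAs had groups that did not overlap. In samples of mixed cells a smaller share of epithelial cells and less of the miRNA per cell cannot be told apart.

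**Figure D1:**
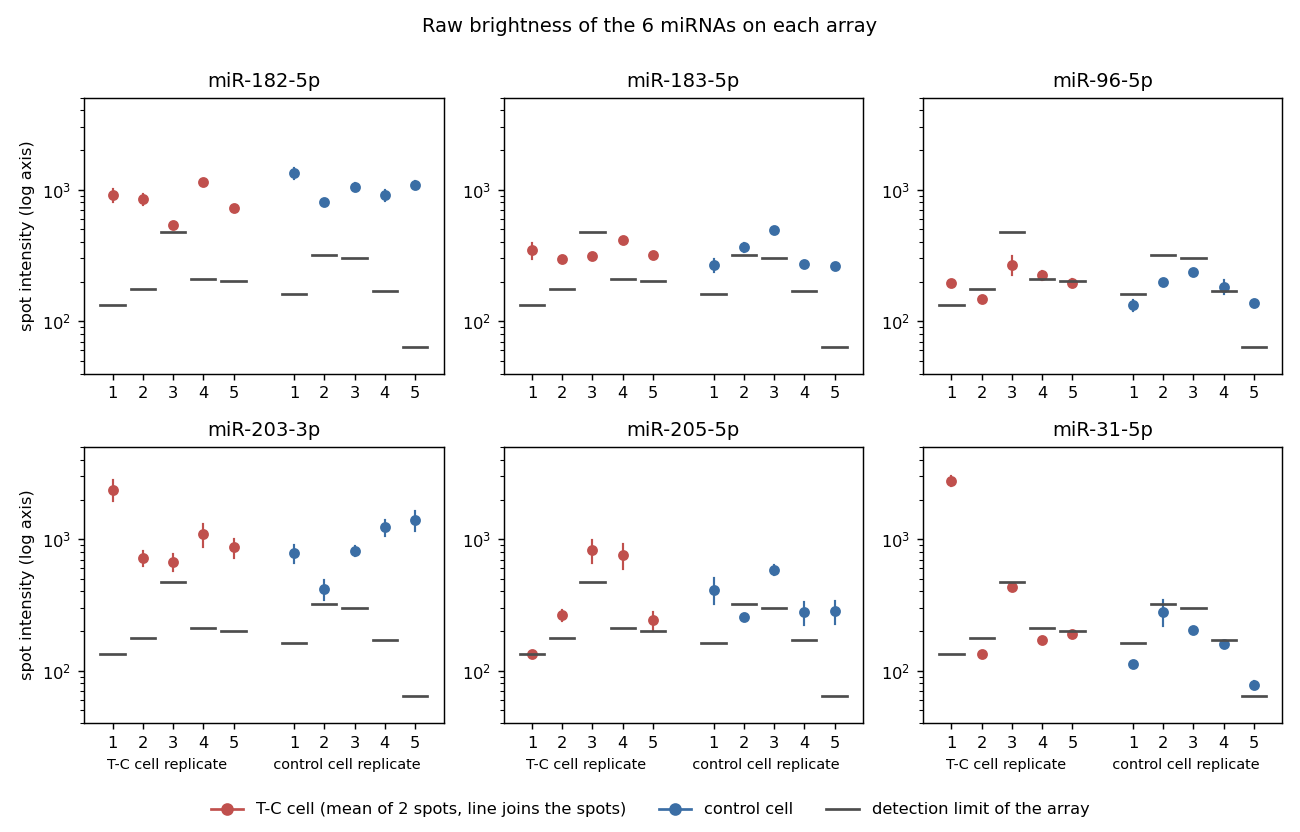
Spot intensity (log axis) of the 6 miRNAs on each array, T-C cell replicates in red and control cell replicates in blue; points are means of 2 spots, vertical lines join the spots and grey bars are each array's detection limit. miR-182-5p and miR-203-3p lay above the limit on all 10 arrays, and miR-31-5p stood at 2785 on T-C cell replicate 1 and at 432 or less elsewhere.

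miR-182-5p, which represses Foxo transcription factors among other targets, was the brightest of the cluster and the member nearest to a difference. Its raw intensity was 912, 852, 537, 1152 and 722 on T-C cell replicates 1 to 5, against 1340, 799.8, 1048, 908 and 1093 on control cell replicates 1 to 5. In raw intensity T-C cell replicate 3 was the dimmest and control cell replicate 1 the brightest, and the groups overlapped. After normalization the level was 9.70 ± 0.29 in T-C cell samples and 10.11 ± 0.25 in control cell samples (SD, n = 5 each). The log2 difference was −0.41 (SE 0.19, 95% interval −0.82 to −0.00264, limma unadjusted p = 0.0488, adjusted p = 0.267), a fold of 0.753 with an interval from 0.568 to 0.998. On the normalized scale 3 of 5 T-C cell arrays lay below the lowest control cell array, and 3 of 5 control cell arrays lay above the highest T-C cell array. The lowest array on that scale was T-C cell replicate 1, at 9.33. Leaving out 1 array gave limma unadjusted p from 0.0219 (T-C cell replicate 2) to 0.142 (control cell replicate 1), with 0.106 for T-C cell replicate 1. The 95% interval of miR-182-5p holds decreases of up to 0.568-fold and ends next to no change.

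miR-183-5p, transcribed with miR-182-5p, was dimmer and closer to its detection limit. Intensities of 346, 296, 313, 416 and 318 on T-C cell replicates 1 to 5 stood against 267, 365, 494, 273 and 261 on control cell replicates 1 to 5. Only T-C cell replicate 3, with its high background, fell short of detection, and control cell replicate 3 was the brightest array of both groups. Normalized levels of 8.56 ± 0.19 in T-C cell samples and 8.67 ± 0.23 in control cell samples (SD, n = 5 each) gave a log2 difference of −0.10 (SE 0.16, 95% interval −0.44 to 0.23, limma adjusted p = 0.798). In fold terms the interval runs from 0.736 to 1.18, on a scale that understates changes of miRNAs near background. miR-183-5p lay between 1.40 and 4.75 times the mean of the blank spots of its own array. With blanks subtracted its log2 difference was −0.19 (limma unadjusted p = 0.659), so the interval is no bound on the change of the miRNA itself.

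miR-96-5p, the third arm of the cluster, whose seed mutations cause hearing loss in mice and people, was close to the background of most arrays. It was detected on T-C cell replicates 1 and 4 and on control cell replicates 4 and 5, that is on 2 of 5 arrays in each group, and so was not tested. Its intensities were 194, 147, 269, 224 and 194 on T-C cell replicates 1 to 5, against 132, 198, 235, 183 and 138 on control cell replicates 1 to 5. These values lay between 0.567 and 2.15 times the detection limit of their own array. The normalized level was 7.94 ± 0.13 in T-C cell samples and 7.94 ± 0.15 in control cell samples (SD, n = 5 each). When all 1892 miRNAs were tested, the difference of miR-96-5p was 0.0029 (95% interval −0.19 to 0.20, limma adjusted p = 0.996), on a scale that understates changes of miRNAs near background.

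Ratios within an array, which need no scaling between arrays, put miR-182-5p above miR-183-5p in brightness on all 10 arrays. Brightness of different probes is not a molar amount. Since miR-96-5p was under its detection limit on 6 of 10 arrays and miR-183-5p on T-C cell replicate 3, no order is read for miR-96-5p. The intensity of miR-182-5p was 2.64, 2.88, 1.71, 2.77 and 2.27 times that of miR-183-5p on T-C cell replicates 1 to 5, against 5.02, 2.19, 2.12, 3.33 and 4.19 times on control cell replicates 1 to 5. Background was not subtracted, so a bright background lowers these ratios, and they do not measure ratios of the miRNAs. The blank spots averaged 82.2, 136, 223, 135 and 161 on T-C cell replicates 1 to 5. On control cell replicates 1 to 5 they averaged 100, 227, 208, 113 and 54.9. The value of 1.71, on T-C cell replicate 3, is set against a miR-183-5p signal under the detection limit and does not measure a ratio of the miRNAs. On the log2(intensity + 50) scale that ratio was 1.16 ± 0.29 over T-C cell arrays and 1.52 ± 0.50 over control cell arrays (SD, n = 5 each, T-C cell replicate 3 included), and these overlapped. Across the 10 arrays the normalized levels of miR-182-5p and miR-183-5p had a Pearson r of 0.43, and without T-C cell replicate 1 the r was 0.12. These arrays share probes, normalization and background, so the r is a description only.

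**Figure D2:**
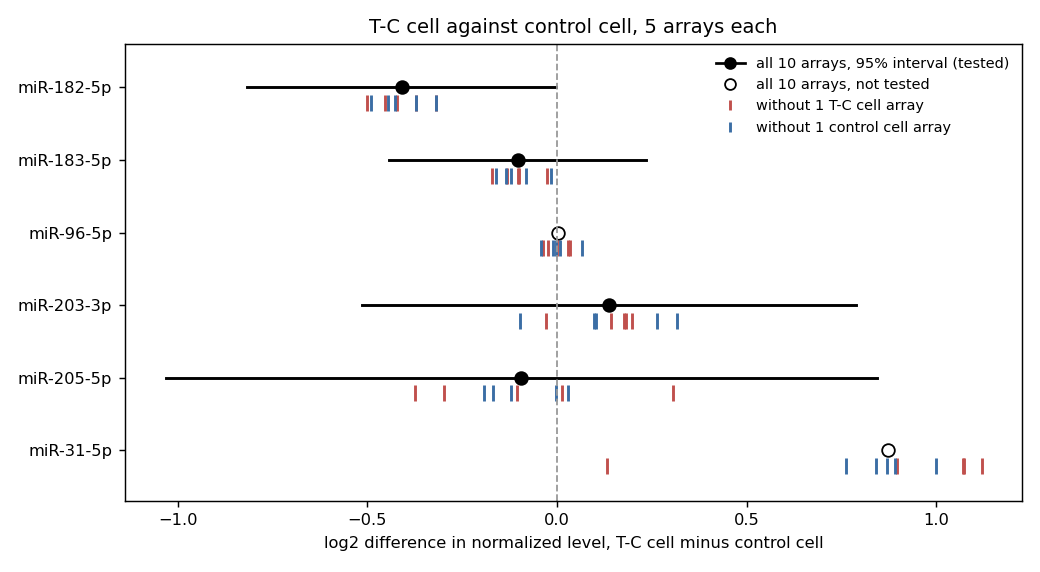
Log2 difference in normalized level (T-C cell minus control cell) for the 6 miRNAs; filled points with lines are tested miRNAs with 95% limma intervals, open points were not tested, and ticks give the difference without 1 T-C cell array (red) or 1 control cell array (blue). The interval of miR-182-5p ends at −0.00264, and the difference of miR-31-5p was 0.87 with all arrays and 0.13 without T-C cell replicate 1.

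miR-203-3p, the keratinocyte differentiation miRNA, was in the same range of brightness as miR-182-5p and varied more between arrays. It had intensities of 2369, 717, 675, 1085 and 866 on T-C cell replicates 1 to 5, against 781, 417, 816, 1227 and 1399 on control cell replicates 1 to 5. T-C cell replicate 1 was the brightest array and control cell replicate 2 the dimmest, and the other 4 T-C cell arrays lay within the control cell range. The normalized level was 9.997 ± 0.37 in T-C cell samples and 9.86 ± 0.65 in control cell samples (SD, n = 5 each). Its log2 difference was 0.14 (SE 0.30, 95% interval −0.51 to 0.79, limma adjusted p = 0.875), or between 0.70 and 1.73-fold. Without T-C cell replicate 1 the normalized level of the remaining 4 T-C cell arrays was 9.84 ± 0.06 (SD), and a refit gave a difference of −0.03. A refit without control cell replicate 2 gave −0.10, so the direction of miR-203-3p rested on single arrays of either group. The 2 spots of control cell replicate 2 read 346 and 488, and only on this array was the first spot the dimmer one.

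miR-205-5p, the repressor of Zeb1 and Zeb2, varied most among the tested members. Its intensities were 133, 264, 823, 757 and 241 on T-C cell replicates 1 to 5, against 413, 256, 583, 277 and 284 on control cell replicates 1 to 5. The T-C cell arrays thus held both the lowest and the highest values, with 2 of 5 above and 2 of 5 below the whole control cell range on the normalized scale. The lowest value, on T-C cell replicate 1, equalled the detection limit to 3 digits, and control cell replicate 2 lay under its limit. Normalized levels were 8.65 ± 1.05 in T-C cell samples and 8.74 ± 0.41 in control cell samples (SD, n = 5 each). On that normalized scale the highest and lowest arrays of miR-205-5p differed 6.39-fold among T-C cell samples and 1.93-fold among control cell samples. The lowest was T-C cell replicate 1, at its detection limit, where normalization put miR-205-5p (7.14) below the dimmer miR-205-3p (7.35). The log2 difference of miR-205-5p was −0.09 (SE 0.43, 95% interval −1.03 to 0.84, limma adjusted p = 0.935), so both 0.489-fold and 1.79-fold lie inside the interval. Refits turned the sign of miR-205-5p to 0.31 when T-C cell replicate 1 was left out, to 0.012 for T-C cell replicate 5 and to 0.028 for control cell replicate 3.

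The spread within groups set the members apart from each other more than the group did. The pooled within-group SD of miR-205-5p was 0.80, rank 23 from the top among 476 tested miRNAs, whose median was 0.29. It includes T-C cell replicate 1, at its detection limit, without which the SD of the T-C cell samples was 0.73 instead of 1.05. The pooled SD of miR-203-3p was 0.53 (rank 74), that of miR-182-5p 0.27 (rank 273) and that of miR-183-5p 0.21 (rank 355). miR-183-5p thus varied less than the median tested miRNA, miR-182-5p slightly less, and miR-203-3p and miR-205-5p more. But miR-183-5p was dim, and the scale understates the spread of miRNAs near background, so its low rank is not read as a steady level. With so few miRNAs, no rule for cluster members against single hairpins is read.

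**Figure D3:**
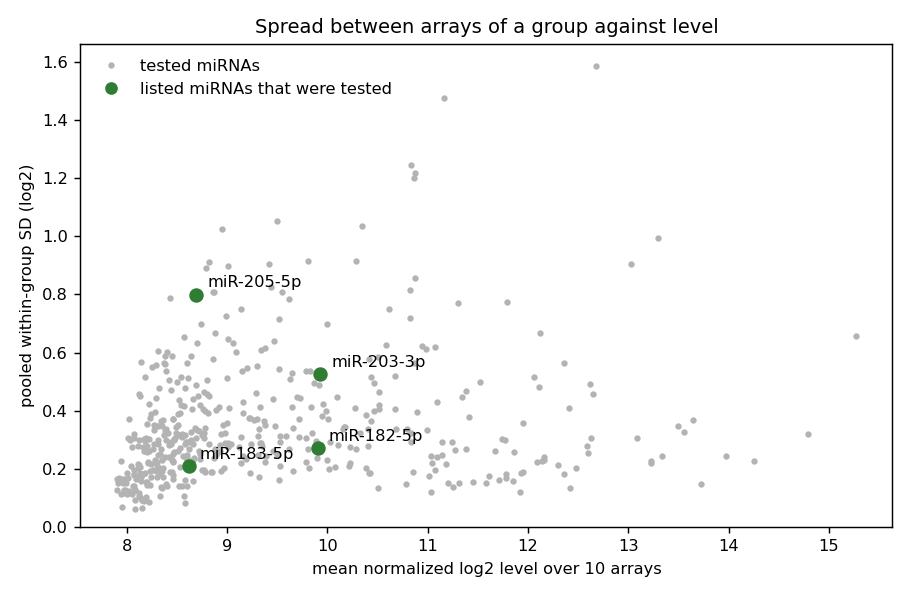
Pooled within-group SD of the normalized log2 level against mean log2 level over 10 arrays; each grey point is 1 of the 476 tested miRNAs and green points are the 4 listed miRNAs that were tested. miR-205-5p (SD 0.80) and miR-203-3p (0.53) lie above the median of 0.29, miR-182-5p (0.27) and miR-183-5p (0.21) below it.

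miR-31-5p, the miRNA of wounded and inflamed skin, was at background on most arrays and bright on one. Its intensities were 2785, 134, 432, 172 and 190.2 on T-C cell replicates 1 to 5, against 112, 280.3, 202, 161 and 78.5 on control cell replicates 1 to 5. On T-C cell replicate 1 it stood at 20.9 times the detection limit and at rank 78 of 1892 in brightness. On the other T-C cell arrays it lay between 0.762 and 0.945 times the limit, and on control cell arrays between 0.674 and 1.23 times, above it on control cell replicate 5 only, which had the lowest background. Both spots of T-C cell replicate 1 were bright, at 2549.9 and 3021, with SDs within the spot of 76.3 and 61.4. With detection on 2 of 10 arrays miR-31-5p was not tested. Normalized levels were 8.69 ± 1.52 in T-C cell samples and 7.81 ± 0.31 in control cell samples (SD, n = 5 each), a difference of 0.87. Without T-C cell replicate 1 the T-C cell level was 8.03 ± 0.42 (SD, n = 4), and a refit gave a difference of 0.13. When all miRNAs of the array were tested, the miR-31-5p difference had a 95% interval from −0.40 to 2.15 (limma adjusted p = 0.903).

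The other arm of the same hairpin was raised on the same array. The Mir31 hairpin (chr4:88910557-88910662, minus strand, GRCm38.p6) is shown with both arms in capitals, since each arm has a probe of its own with a different sequence.
Mir31: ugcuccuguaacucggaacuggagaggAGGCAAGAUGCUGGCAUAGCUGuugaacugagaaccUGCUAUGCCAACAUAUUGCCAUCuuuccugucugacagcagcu
miR-31-3p had an intensity of 361 on T-C cell replicate 1, or 2.71 times the detection limit, against 113 to 299.98 on the other T-C cell arrays and 64.9 to 274 on control cell arrays. Apart from T-C cell replicate 1 it passed the limit on control cell replicate 5 alone, at 1.01 times. The ratio of miR-31-5p to miR-31-3p intensity was 7.72 on T-C cell replicate 1, the brightest array of both. On 8 of the other 9 arrays both arms were under the detection limit, so a ratio there would compare background only.

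Among all 1892 miRNAs, 6 were higher on T-C cell replicate 1 than on every other array by at least 2 on the normalized log2 scale, and 20 by at least 1. These 6 were miR-31-5p, miR-6240, the hepatocyte and pancreas miRNA miR-802-5p, miR-3473e, miR-3473f and miR-3473b. Those other than miR-31-5p and miR-802-5p were named after their values were seen. miR-802-5p was on the list of hepatocyte markers, which was chosen with earlier results of these data known. miR-31-5p and miR-802-5p were under the detection limit on the next highest array, so their excess is measured against background and no order among the 6 is read. In the same array miR-205-5p was 1.06 lower than on any other array, one of 19 miRNAs lower by at least 1, and miR-203-3p was 0.07 above the next highest array. The miR-205-5p intensity there, 133, was at the detection limit. Its normalized level of 7.14 lay below the 7.35 of miR-205-3p, which was dimmer on that array, at 62.2. The deficit of miR-205-5p is thus on a scale that does not order dim probes of that array by brightness. The 6 hepatocyte markers on T-C cell replicate 1 had a summed raw intensity, not scaled between arrays, of 35356, against 20420 to 35213 on the other T-C cell arrays and 22162 to 34524 on control cell arrays. Their mean normalized level was 10.76 there, the highest of all 10 arrays, but the markers did not move together. Above the control cell means were miR-802-5p (10.15 against 7.49), miR-194-5p (14.29 against 13.45), miR-122-5p (8.10 against 7.38) and miR-192-5p (13.56 against 13.06). Below them were miR-148a-3p (9.95 against 11.21) and miR-101a-3p (8.51 against 9.24). The summed intensity of this list is mostly that of miR-192-5p and miR-194-5p. These averaged 12289 and 13316 on T-C cell arrays and 12414 and 11844 on control cell arrays (n = 5 each). With miR-122-5p detected on T-C cell replicate 1 alone, the sum is no measure of hepatocytes. Of 5 listed blood cell markers 3 were matched by name, and the unmatched names were miR-142a-3p and miR-142a-5p. Array miRNAs named miR-142-3p and miR-142-5p were tested but are not in the sums. Both leaned higher in T-C cell samples without passing (log2 0.34 and 0.39, limma adjusted p = 0.463 and 0.368). Of the 3 matched, miR-150-5p was called higher in T-C cell samples (log2 0.86, limma adjusted p = 0.0433). miR-223-3p and miR-451a did not pass. The 3 summed to 5157 on T-C cell replicate 1 and to 2619 to 4547 on the other T-C cell arrays. On control cell arrays they summed to 1799 to 2538. Their mean normalized level on T-C cell replicate 1, 9.92, was the lowest of the T-C cell arrays (up to 10.03). It lay above the control cell arrays (9.27 to 9.71). The endothelial markers miR-126a-3p and miR-126a-5p summed to 5157, against 2873 to 5221 on the other T-C cell arrays and 3023 to 3909.7 on control cell arrays, and their mean normalized level of 9.81 was the highest of all arrays. That mean holds a marker at background, since miR-126a-5p was detected on 0 T-C cell arrays and on 1 control cell array. Mesenchymal markers summed to 39844, against 30246 to 56376 on the other T-C cell arrays and 37469 to 44972 on control cell arrays. The neuronal markers miR-124-3p and miR-9-5p summed to 255, against 269 to 453 on the other T-C cell arrays and 204 to 439.9 on control cell arrays, with a mean normalized level of 7.76 inside the range of both groups, and miR-124-3p was not detected on any T-C cell array. The 8 other epithelial miRNAs described below had their lowest mean normalized level, 10.59, on T-C cell replicate 1. It reached up to 10.91 on the other T-C cell arrays and ran from 10.71 to 11.16 on control cell arrays. That mean holds markers at background, since miR-184-3p was detected on 0 arrays and miR-224-5p on 1 control cell array. What part these differences between arrays had in the levels of miR-31-5p, miR-203-3p and miR-205-5p was not tested.

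Of the other hairpins, those of miR-182, miR-203, miR-183 and miR-205 had the listed arm as the brighter one on all 10 arrays, with miR-183-5p on T-C cell replicate 3 and miR-205-5p on control cell replicate 2 under their detection limits, while both arms of miR-96 lay near background on most arrays. miR-96-3p, miR-203-5p and miR-205-3p were detected on 0 of 10 arrays, and miR-182-3p and miR-183-3p on control cell replicate 5 alone. miR-203-3p was 2.98 to 29.4 times as bright as miR-203-5p on T-C cell arrays and 2.79 to 24.3 times on control cell arrays. The ratio of miR-182-5p to miR-182-3p ran from 3.05 to 11.9 on T-C cell arrays and from 4.55 to 16.97 on control cell arrays. Since the other arms lay at background, these ratios compare the listed arm with background and are no measure of arm usage.

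**Figure D4:**
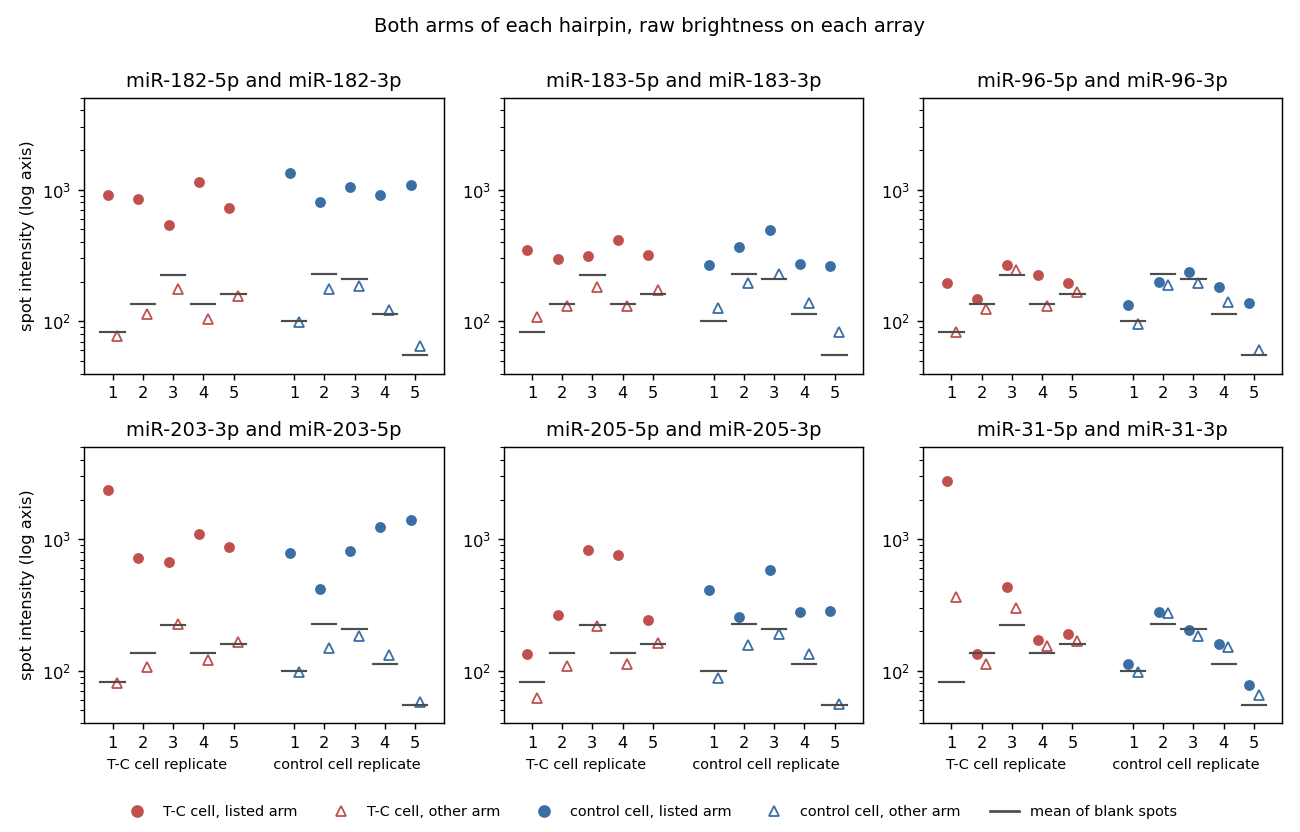
Spot intensity (log axis) of the listed arm (circles) and the other arm (triangles) of each hairpin on each array, T-C cell replicates in red and control cell replicates in blue; grey bars are the mean of the array's blank spots. The other arms lie near the blank spots, except miR-31-3p at 361 on T-C cell replicate 1, where miR-31-5p stood at 2785.

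Other epithelial miRNAs were bright in both groups and did not pass either. The list, chosen with earlier results of these data known, was the miR-200 family, which keeps epithelial cells from a mesenchymal state through Zeb1 and Zeb2, with miR-375-3p of endocrine and gut epithelium, miR-184-3p and miR-224-5p. Of its 8 members 6 were tested, 0 rose and 0 fell, against 7.77% of the 476 tested miRNAs that passed in either direction. Their median log2 difference was −0.22, with 1 above and 5 below 0, against a median of 0.02 over all 476, with 252 above and 224 below 0. miR-200b-3p had an intensity of 8763 on T-C cell arrays and 9756 on control cell arrays (means, n = 5 each), and its log2 difference was −0.12. miR-200a-3p differed by −0.37 (SE 0.18, limma adjusted p = 0.311) and miR-375-3p by −0.51 (SE 0.25, limma adjusted p = 0.311). miR-184-3p was detected on 0 of 10 arrays and miR-224-5p on 1.

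The tested miRNAs whose normalized levels ran most alike with each member over the 10 arrays were picked by Pearson r, as a description, since all share arrays and normalization. For miR-182-5p they were miR-6360 (r = 0.88), miR-378d (0.87) and miR-187-5p (0.86). For miR-183-5p they were miR-411-5p (r = 0.83), miR-1839-5p (0.79) and miR-382-5p (0.75). miR-203-3p ran most like miR-6984-3p (r = 0.79), miR-3962 (0.78) and miR-7058-3p (0.75). miR-205-5p ran most like miR-101b-3p (r = 0.92), miR-138-5p (0.87) and miR-5121 (0.86), with r of 0.89, 0.79 and 0.67 when T-C cell replicate 1 was left out. Between the members themselves the r ran from −0.61 (miR-183-5p and miR-203-3p) to 0.51 (miR-183-5p and miR-205-5p), which without T-C cell replicate 1 were −0.46 and 0.17.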

How the data were processed

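The authors deposited 1 file per array with the median intensity of each spot, a linear brightness, and the SD of brightness within the spot, per the file headers. Per the labels, 1 µg of total RNA was poly(A)-tailed, ligated to a tag and stained with Cy3 by a service provider (LC Sciences). No scaling between arrays and no background column is given, and neither the scanner nor the miRBase release is stated. The headers also name a second brightness pair, which holds no values, and T-C cell replicate 1 came with 1 column more than the other arrays. Each array held 3968 spots, 3784 of them for 1892 miRNAs.

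Groups and replicate numbers came from the titles. Intensities were turned into log2(intensity + 50), averaged over the 2 spots and brought to a common scale by cyclic loess over all miRNAs (limma 3.58.1, R 4.3.3). miRNAs detected on at least 5 of 10 arrays were compared between groups by lmFit and a trended eBayes (two-sided). The number of arrays limits the precision. The fit was tested on simulated data. The members, lists and rule for named miRNAs (members, their other arms, same-seed miRNAs and the 3 most alike by r) were chosen with earlier results of these data known. No array name matched miR-203b, and no array miRNA shared a full seed with a member. Correlations between arrays ran from 0.738 to 0.976, so none was a duplicate. Positions are RefSeq's on GRCm38.p6, and figures were drawn in Python 3.11.15 with matplotlib 3.10.9. Alternatives changed the scaling, offset, background, filter, variance model, spots, pairing, detection limit and arrays used.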

Additional observations from a re-analysis of the deposited data

Results flagged for a closer look

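Among 24 groups of 5 arrays screened (6 listed arms and 6 other arms in both groups), 3 had an array far from the others. The limit used is passed by chance in about 1 in 20 independent groups. The 24 groups share arrays, and miR-31-5p and miR-31-3p share a hairpin, so the 3 are not read against chance. In all 3 the array was T-C cell replicate 1, as the highest of its group. For miR-31-5p its normalized level was 11.32, the next highest T-C cell array 8.65 and the lowest 7.72, so that the gap made up 0.744 of the range. For miR-31-3p the level was 8.95, the next 7.86 and the lowest 7.63, a share of 0.828. For miR-203-3p the level was 10.65, the next 9.92 and the lowest 9.80, a share of 0.857. What set this array apart was not tested.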

How the results depend on the processing

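Under 23 alternatives 0 limma calls were made of miR-182-5p, miR-183-5p, miR-203-3p and miR-205-5p, and 0 of miR-96-5p in the 3 and of miR-31-5p in the 1 that tested them. miR-182-5p stayed negative in all 23 (−0.50 to −0.32, −0.50 to −0.32 leaving out 1 array), with the smallest limma adjusted p at 0.139 and an unadjusted p under 0.05 in 8. miR-183-5p was 0.050 without normalization, which itself moved the median of all tested miRNAs by 0.12, and −0.17 to −0.02 leaving out 1 array. miR-205-5p was 0.16 with quantile normalization, 0.055 without normalization, 0.020 with blanks subtracted, and −0.37 to 0.31 leaving out 1 array. miR-203-3p ran from −0.10 to 0.32 leaving out 1 array, and was 0.36 with blanks subtracted, 0.25 with quantile normalization, 0.23 without normalization, 0.23 on the first spot and 0.03 on the second. miR-96-5p was 0.17 without normalization and −0.04 to 0.06 leaving out 1 array, and miR-31-5p was 1.98 with blanks subtracted and 0.13 to 1.12 leaving out 1 array. The cause of these moves was not tested.

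The 37 called miRNAs became 14 with median centring, 3 with blanks subtracted, 8 with detection on 3 arrays and 1 with all miRNAs tested. With the replicate block 22 were called. Same-numbered arrays deviated together with r from −0.20 to 0.26 and only the T-C cell array numbered 5 was most like its own number, so the numbers were not read as pairs, and the block changed no call of a listed miRNA. Leaving out 1 array gave 1 to 44: 12 and 2 for T-C cell replicates 1 and 4, and 3, 1, 1 and 3 for control cell replicates 1, 2, 3 and 5. These fits had 77, 88, 75, 80, 77 and 69 at an unadjusted p under 0.05. At 5 SD above the blanks miR-96-5p was detected on 1 T-C cell and 1 control cell array. At 2 SD miR-31-5p was detected on 3 T-C cell and 2 control cell arrays, and above the brightest blank on 2 and 2.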
